A study of Mus musculus with 6 samples.

Results

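Leucine, isoleucine and valine are burned in mitochondria by a short chain of enzymes, and 10 genes of that chain were followed in brown fat of cold-exposed mice. They were taken from the deposited table by symbol: the transaminase Bcat2, the mitochondrial carrier Slc25a44, the keto acid dehydrogenase subunits Bckdha, Bckdhb and Dbt, its regulators Bckdk and Ppm1k, and the downstream enzymes Ivd, Hibadh and Aldh6a1. All 10 were found among the 54385 genes of the table, and all 10 were among the 14767 that passed the filter on low counts. Bckdhb was chosen by its measured difference between the genotypes in an earlier look at the same libraries, and the other 9 were listed for their place in the pathway with that result known. Their genotype differences are therefore given as a description, with no p-value printed for a member. Counts of members past a threshold are given beside the share of all genes, and a call of Bckdhb restates how it was chosen.

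Polyadenylated RNA was sequenced from interscapular brown adipose tissue, the heat-producing fat between the shoulder blades, of C57BL/6N mice, as 6 libraries. The 3 knockout samples carried 2 floxed Adcy3 alleles and 1 Adipoq-Cre allele (Adcy3-FL/FL/Adipoq-wt/cre), and the 3 control samples carried the same floxed alleles without Cre (Adcy3-FL/FL/Adipoq-wt/wt). All had eaten chow for 20 weeks and were kept at 5 °C for 24 hours before the tissue was taken, so no warm group is compared here. Cre driven by Adipoq acts in adipocytes of every fat depot and leaves the other cells of the tissue unedited, and no Cre-bearing mice without floxed alleles were analysed. Adcy3 encodes adenylyl cyclase 3, which makes cyclic AMP.

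Branched-chain amino acids first lose their amino group and then, as keto acids, are decarboxylated by a mitochondrial complex that commits them to oxidation. The complex has a decarboxylase core made of alpha and beta chains (Bckdha and Bckdhb), a transacylase (Dbt) and a dehydrogenase shared with other complexes (Dld). The kinase Bckdk phosphorylates the alpha chain and shuts the complex down, and the phosphatase Ppm1k reverses this. In mice, cold-activated brown fat takes up these amino acids as fuel, and Slc25a44 carries them into its mitochondria.

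The libraries held between 13956786 and 17538044 estimated counts. Adcy3 stood at 25.4 ± 4.36 counts per 1000000 (CPM) in knockouts and 154 ± 17.7 CPM in controls (SD, n = 3 each). A further entry without a symbol, ENSMUSG66666620654, ends in the same digits as the Adcy3 identifier, ENSMUSG00000020654. That entry stood at 52.5 ± 12.2 CPM in knockouts and 290 ± 45.4 CPM in controls (SD, n = 3 each). All 10 brown adipocyte markers passed the filter on low counts. Their summed level was 10388 to 11189 CPM in knockouts and 7952 to 9031 CPM in controls. The depot is taken from the sample labels and was not tested with these markers. Ucp1 and Cidea, the most abundant of them, had log2 fold changes of 0.34 ± 0.09 and 0.36 ± 0.14 (SE). Skeletal muscle RNA was present in unequal amounts. The 20 muscle markers made up 0.835%, 0.0629% and 0.00389% of counts in knockout libraries 1 to 3, against 1.95%, 1.78% and 1.52% in control libraries 1 to 3. All 20 had a negative log2 fold change, among them Myh4 (-2.98) and Acta1 (-2.15), and none passed the test. Knockout library 1 also stood apart from the rest in a way that followed transcript length. Its level relative to the mean of the other knockouts had a median of 1.33 over the 3690 tested genes with transcripts of 57 to 2061 bases, the shortest of 4 length classes, and of 0.825 over the 3689 genes of the longest class.

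The promoters of 8 of the 10 genes were matched in RefSeq sequences on GRCm38.p6, each covering 250 bases before to 50 bases after a transcription start. Shown here are the promoters of the alpha and beta chain genes, whose products pair in the decarboxylase but whose genotype differences were unlike, and of Pdhb, the beta chain gene of the related pyruvate dehydrogenase, which was among the 5 genes most like Bckdhb. Capitals mark the letters CCAAT on either strand, a motif added after the sequences had been seen.
Bckdhb, chr9:83924887-83925186, plus strand: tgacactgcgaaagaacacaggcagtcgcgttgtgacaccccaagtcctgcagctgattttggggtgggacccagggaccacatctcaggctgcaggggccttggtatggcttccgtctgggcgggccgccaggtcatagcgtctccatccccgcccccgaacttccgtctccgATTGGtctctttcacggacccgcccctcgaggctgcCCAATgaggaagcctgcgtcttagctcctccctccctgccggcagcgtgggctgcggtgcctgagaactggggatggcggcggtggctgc
Bckdha, chr7:25658712-25659011, minus strand: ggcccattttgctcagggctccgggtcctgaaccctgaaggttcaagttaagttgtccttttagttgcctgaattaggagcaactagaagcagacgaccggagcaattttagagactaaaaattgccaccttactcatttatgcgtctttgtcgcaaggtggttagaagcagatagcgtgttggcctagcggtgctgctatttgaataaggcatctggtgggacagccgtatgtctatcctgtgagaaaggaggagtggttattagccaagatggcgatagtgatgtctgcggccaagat
Pdhb, chr14:8172943-8173242, minus strand: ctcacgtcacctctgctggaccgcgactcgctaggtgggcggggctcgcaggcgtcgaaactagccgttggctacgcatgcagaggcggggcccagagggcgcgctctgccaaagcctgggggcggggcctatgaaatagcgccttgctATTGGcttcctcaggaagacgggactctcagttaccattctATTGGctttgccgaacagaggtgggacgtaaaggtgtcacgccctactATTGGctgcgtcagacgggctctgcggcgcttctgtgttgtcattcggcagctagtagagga
The motif was found 2 times in the Bckdhb promoter, at positions -76 and -40 from the start site, and 3 times in that of Pdhb, and it was not found in that of Bckdha. It was in 6 of the 8 member promoters, with 4 matches each in Ivd and Aldh6a1, 2 in Ppm1k and 1 each in Bckdk and Hibadh, so it does not set Bckdhb apart from the pathway. Of all 32851 promoters 37.4% held at least 1. The Bckdhb promoter held 20 CpG dinucleotides and 65.0% G and C, that of Pdhb 24 and 61.0%, and that of Bckdha 10 and 48.0%, where the medians over all promoters were 7 and 52.7%. The start used for Bckdha lies 220 bases from the outermost start in the gene annotation, against 8 bases for Bckdhb. The cyclic AMP response element TGACGTCA was in none of the 8 promoters and in 1.79% of all promoters. Its half-site TGACG, contained in that element, occurred among the 8 once, at position -160 in Ppm1k, and in 20.8% of all promoters; that of Pdhb held 2, at positions -246 and -4. TNAAGGTCA, the letters of an estrogen-related receptor element, was in none of the 8 and in 1.28% of all promoters. The direct repeat 1 element of nuclear receptors (0.0396% of all promoters) and the nuclear respiratory factor 1 element (0.971%) were also in none of the 8. Both strands were searched each time.

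Across the pathway the beta chain gene stood alone in the size of its difference. Bckdhb was 1.77 times as high in knockouts as in controls, whereas the other 9 genes lay between 0.860 and 1.18 times the control mean. On the log2 scale 6 of the 10 differences were positive and 4 negative, with a median of 0.14, while 51.7% of all genes tested were positive and their median was 0.01. At a Benjamini-Hochberg adjusted p under 0.05 from edgeR, 0 of the 10 were called, where 0.0609% of all genes tested were called, 0.0271% as higher in knockouts and 0.0339% as lower. At an unadjusted p under 0.05 the count was 1 of 10, Bckdhb, on the higher side, against 10.5% of all genes, 2.87% higher and 7.6% lower. DESeq2's Wald test called 1 of the 10, again Bckdhb, and 2.08% of all genes. Every knockout library lay above every control for 3 members (Bckdhb, Bckdha and Hibadh), as it did for 7.63% of all genes, and none had every knockout below every control, against 10.8%. These counts come from the contrast that singled out Bckdhb and support nothing about the pathway.

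**Figure D1:**
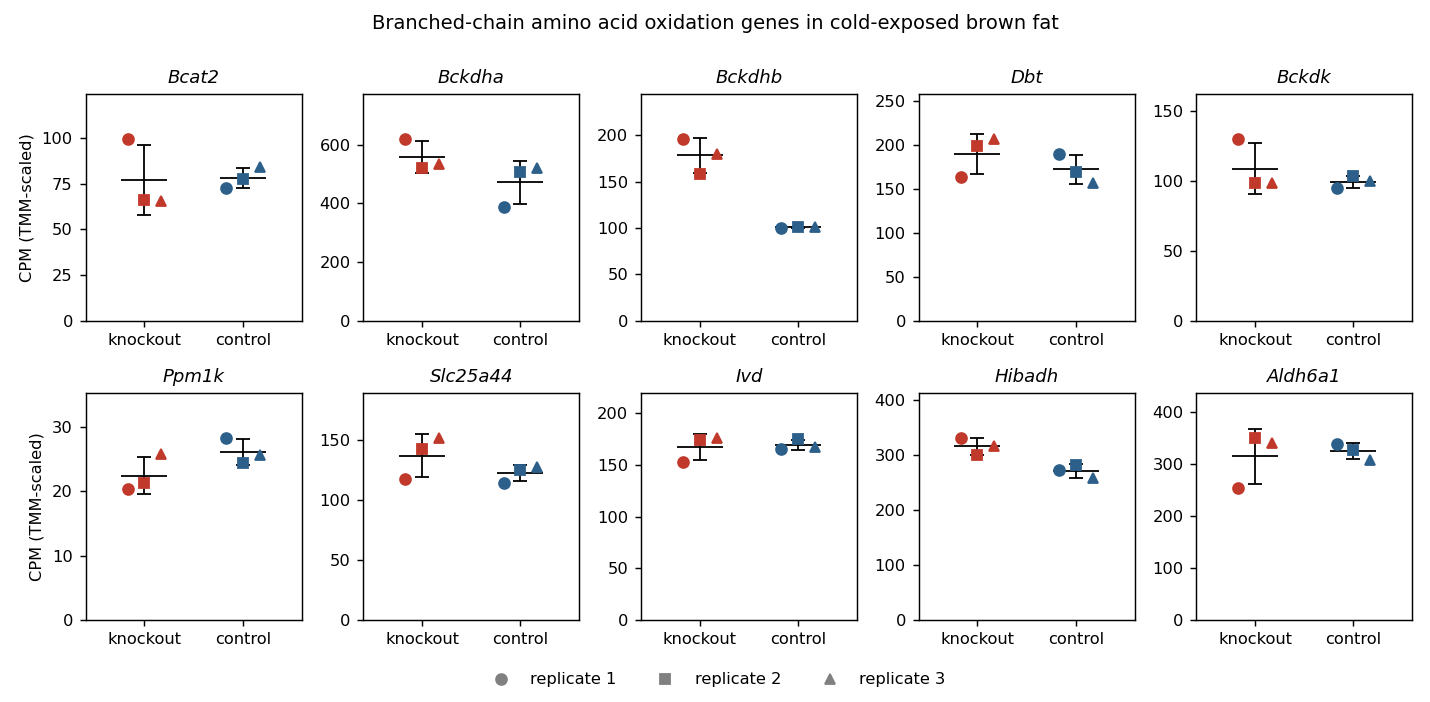
TMM-scaled CPM (y axis, from 0) of each of the 10 genes in the 3 knockout and 3 control libraries; marker shapes give the replicate number, the bar the group mean and the whiskers 1 SD. Bckdhb separates the groups widely, at 159 to 196 CPM in knockouts and 99.8 to 101 CPM in controls, while 7 of the 10 genes overlap between the groups.

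Entry into the pathway showed little difference. Bcat2, the mitochondrial transaminase (ENSMUSG00000030826, GRCm38 chromosome 7, 45570153 to 45589711, plus strand), stood at 99.4, 66.0 and 65.7 CPM in knockouts 1 to 3, against 72.7, 77.7 and 84.1 CPM in controls 1 to 3. Knockout library 1 was above and the other knockouts below every control, so the groups overlapped and the log2 fold change of -0.02 ± 0.18 (SE) averages libraries that lie on both sides. It was -0.24 without knockout library 1. An antisense gene, 0610005C13Rik, shares 622 exonic bases with Bcat2 and stood at 0.368 CPM in knockouts and 1.02 CPM in controls, far below Bcat2; whether the counting used strand is not stated, so reads of overlapping genes cannot be told apart. Slc25a44, the carrier (ENSMUSG00000050144, chromosome 3, 88410498 to 88425139, minus strand), stood at 117, 142 and 151 CPM in knockouts 1 to 3, against 114, 125 and 128 CPM in controls 1 to 3. Knockouts 2 and 3 were above every control and knockout 1 was within them (log2 fold change 0.16 ± 0.14, SE).

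The decarboxylase beta chain gene was higher in each knockout. Bckdhb (ENSMUSG00000032263, chromosome 9, 83925145 to 84124240, plus strand) stood at 196, 159 and 180.3 CPM in knockouts 1 to 3, against 99.8, 101 and 101 CPM in controls 1 to 3. The lowest knockout was above the highest control, and the knockouts were 1.94, 1.58 and 1.79 times the control mean. The means were 178 ± 18.6 CPM in knockouts and 101 ± 0.86 CPM in controls (SD, n = 3 each), a log2 fold change of 0.82 ± 0.12 (SE). The coefficient of variation of the controls was 0.856%, below the 2.46% that counting alone gives on average at their 1509 to 1769 estimated counts. Among all genes tested, 0.359% had a smaller one in controls, so the control SD of this gene is no measure of its full error. The knockouts varied by 10.4% around their mean.

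Muscle RNA differed between the groups. Fold changes varied with transcript length, as did knockout library 1 against the other knockouts. The part of muscle RNA and of length in the Bckdhb difference was not tested beyond the following values. Knockout library 1, the knockout with the most muscle marker counts, had the highest Bckdhb level, and knockout 3, with the least, came next. Without knockout library 1 the log2 fold change was 0.75. Bckdhb was then past the adjusted threshold in edgeR, where 0.296% of genes were called higher and 5.64% in either direction, a call that its choice on these libraries makes no evidence. Adjusted for the mean log2 CPM of the muscle markers the log2 fold change was 0.90 ± 0.17 (SE). Adjusted for their share of counts it was 1.10 ± 0.28 (SE). Both muscle measures were lower in every knockout than in every control, so these fits cannot separate muscle RNA from genotype. The adjustment for share turned Myh4 to 2.55 and Acta1 to 3.95. Bckdhb and Bckdha lie in the class of tested genes with the shortest transcripts, in which the median log2 fold change was 0.13, against -0.07 in the class with the longest. Within that shortest class 2.14% of genes had a log2 fold change above that of Bckdhb. In whole tissue, more RNA of a gene per adipocyte and a larger share of adipocyte RNA cannot be told apart. The 7 adipocyte markers summed to 8905 to 10399 CPM in knockouts and 7963 to 8581 CPM in controls. Of these, 6 were positive and 0 had an unadjusted p under 0.05 in edgeR's test. All 10 brown adipocyte markers were positive, with log2 fold changes of 0.10 to 0.93. In the same test 5 of the 10 were higher at an unadjusted p under 0.05, against 2.87% of all genes, and 0 were called over all genes. Of the markers of other cells 0 were called in each list over all genes, and their part in the result was not tested. At an unadjusted p under 0.05, 7 of 7 fibroblast, 4 of 5 white adipocyte and 3 of 6 macrophage markers were lower, against 7.6% of all genes, and 0 of 6 endothelial markers were past it. All 7 fibroblast markers were negative (296 to 468 CPM summed in knockouts and 522 to 784 CPM in controls), as were all 6 macrophage markers (48.3 to 92.0 CPM in knockouts and 64.8 to 117 CPM in controls) and the 5 tested of 7 white adipocyte markers (54.4 to 60.4 CPM in knockouts and 83.1 to 113 CPM in controls). Of 6 endothelial markers 4 were positive (522 to 669 CPM in knockouts and 535 to 665 CPM in controls).

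**Figure D2:**
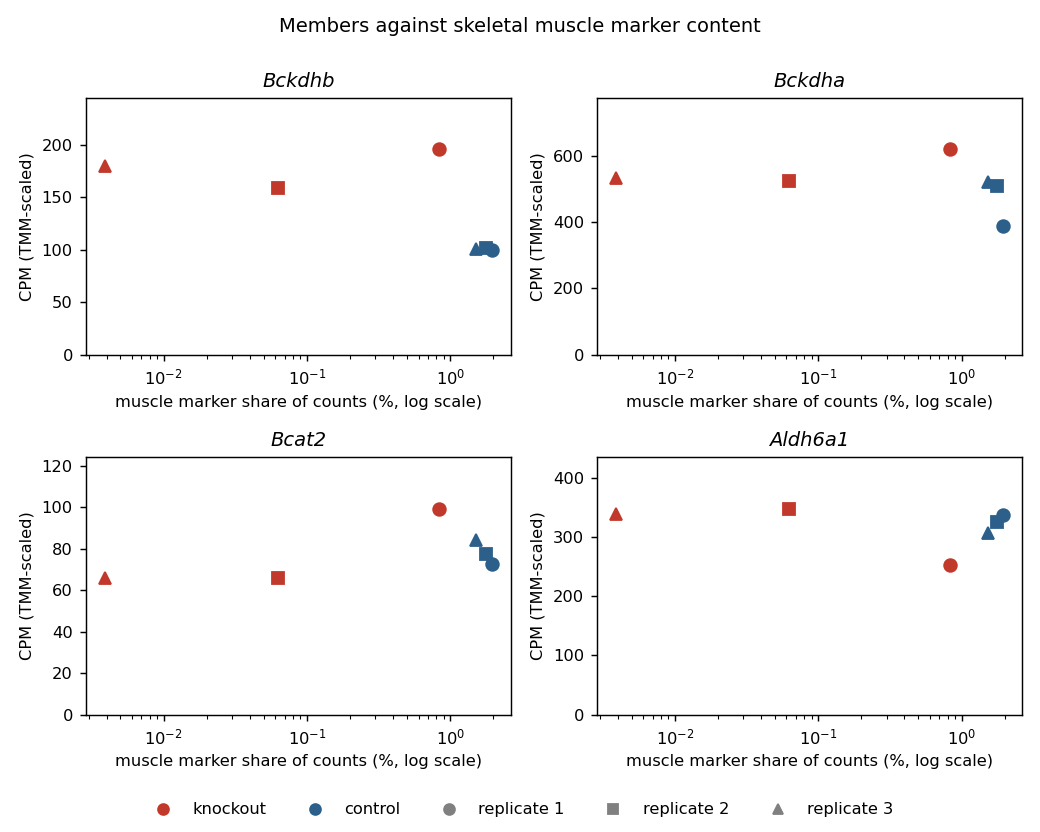
TMM-scaled CPM (y axis, from 0) of 4 genes against the share of counts from 20 skeletal muscle markers (x axis, log scale, in percent), one point per library. Bckdhb is at 159 to 196 CPM in the 3 knockouts, whose muscle shares are 0.00389% to 0.835%. It is at 99.8 to 101 CPM in the controls, whose shares are 1.52% to 1.95%. The shares of the groups do not overlap, so the plot cannot separate muscle RNA from genotype. Bcat2 and Aldh6a1 in knockout library 1 lie on opposite sides of the other libraries.

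The partners of Bckdhb in the complex differed less. Bckdha, the alpha chain (ENSMUSG00000060376, chromosome 7, 25629946 to 25658981, minus strand), stood at 619.5, 522 and 534 CPM in knockouts 1 to 3, against 387, 508 and 520.2 CPM in controls 1 to 3. Control library 1 was far below the other controls, and knockout 2 exceeded the highest control by little (log2 fold change 0.24 ± 0.15, SE). Without control library 1 the log2 fold change was 0.10. Most of the Bckdha exons, 1171 of 1899 bases, also lie within exons of B3gnt8 on the other strand, but B3gnt8 was at 2.86 CPM in knockouts and 2.80 CPM in controls. Dbt, the transacylase (ENSMUSG00000000340, chromosome 3, 116513070 to 116549981, plus strand), stood at 163, 199 and 206 CPM in knockouts 1 to 3, against 189, 169 and 157 CPM in controls 1 to 3. Knockout 1 lay among the controls and the others above them (log2 fold change 0.14 ± 0.14, SE). Dld, the shared dehydrogenase, was at 983 ± 56.3 CPM in knockouts and 823 ± 56.7 CPM in controls (SD, n = 3 each; log2 fold change 0.26 ± 0.12, SE).

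The balance between the chains of the decarboxylase was set out within each library, per length of exon. The level of Bckdhb over that of Bckdha was 0.333, 0.320 and 0.356 in knockouts 1 to 3, against 0.271, 0.210 and 0.205 in controls 1 to 3. The groups did not overlap, and transcripts of the alpha chain gene were the more abundant in every library. Bckdhb over Dbt was 2.22, 1.48 and 1.62 in knockouts 1 to 3, against 0.977 to 1.20 in controls, again without overlap. Bckdhb was chosen for its genotype difference, so the separation of both ratios restates that choice. How many other gene pairs separate the groups was not counted. Bckdha over Dbt overlapped between the groups, at 5.29 ± 1.21 in knockouts and 4.92 ± 1.17 in controls (SD, n = 3 each). For comparison, Pdhb over Pdha1 in the pyruvate dehydrogenase complex was 0.799, 0.512 and 0.537 in knockouts and 0.512, 0.496 and 0.534 in controls, where knockout library 1 alone lay apart.

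The regulators of the complex overlapped between the genotypes. Bckdk, the kinase (ENSMUSG00000030802, chromosome 7, 127904082 to 127910221, plus strand), stood at 130.2, 98.6 and 98.6 CPM in knockouts 1 to 3, against 95.3, 104 and 99.9 CPM in controls 1 to 3. Only knockout 1 was above the controls (log2 fold change 0.13 ± 0.14, SE, and -0.014 without that library). Ppm1k, the phosphatase (ENSMUSG00000037826, chromosome 6, 57506502 to 57535468, minus strand), stood at 20.4, 21.3 and 25.8 CPM in knockouts 1 to 3, against 28.3, 24.3 and 25.7 CPM in controls 1 to 3. It was the least abundant of the 10 genes, and knockout 3 was within the controls (log2 fold change -0.22 ± 0.14, SE). Per length of exon, Bckdk over Ppm1k was 8.07 ± 2.14 in knockouts and 6.25 ± 0.72 in controls (SD, n = 3 each), with overlapping groups.

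Among the downstream members, Ivd of leucine breakdown and Aldh6a1 of valine breakdown overlapped between the genotypes, and Hibadh of valine breakdown did not. Ivd, which oxidises isovaleryl-CoA from leucine (ENSMUSG00000027332, chromosome 2, 118861954 to 118882909, plus strand), stood at 152, 174 and 176 CPM in knockouts 1 to 3, against 166, 175 and 167 CPM in controls 1 to 3. The groups overlapped (log2 fold change -0.02 ± 0.12, SE). Hibadh, which oxidises the valine intermediate hydroxyisobutyrate (ENSMUSG00000029776, chromosome 6, 52546228 to 52640389, minus strand), stood at 331, 301 and 317 CPM in knockouts 1 to 3, against 273, 283 and 258 CPM in controls 1 to 3. All knockouts were above all controls, by a smaller margin than for Bckdhb (log2 fold change 0.22 ± 0.12, SE). Aldh6a1, which acts next in valine breakdown (ENSMUSG00000021238, chromosome 12, 84430717 to 84451004, minus strand), stood at 253, 349 and 340.1 CPM in knockouts 1 to 3, against 338, 327 and 307 CPM in controls 1 to 3. Knockout 1 was below, and the other knockouts above, every control (log2 fold change -0.04 ± 0.15, SE, and 0.090 without knockout 1). Its exons share 1078 bases with Bbof1 on the other strand, which stood at 4.98 CPM in knockouts and 4.58 CPM in controls.

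Knockout library 1 gave an extreme value for most of the pathway. It was the highest of the 6 libraries for 5 genes (Bcat2, Bckdha, Bckdhb, Bckdk and Hibadh) and the lowest for 3 (Ppm1k, Ivd and Aldh6a1), 8 of 10 in all, where 52.3% of all genes tested had their highest or lowest value there. Its level relative to the mean of the other knockouts was 1.51 for Bcat2, 1.32 for Bckdk, 1.17 for Bckdha, 1.16 for Bckdhb and 1.07 for Hibadh. It was 0.872 for Ivd, 0.867 for Ppm1k, 0.806 for Dbt, 0.798 for Slc25a44 and 0.735 for Aldh6a1. The summed level of the 10 genes was 2082, 2031 and 2094 CPM in knockouts 1 to 3, against 1763, 1893 and 1848 CPM in controls 1 to 3. Without Bckdhb the other 9 summed to 1886, 1872 and 1914 CPM in knockouts, against 1664, 1792 and 1746 CPM in controls. Bckdhb made up 7.82% to 9.41% of the sum in knockouts and 5.35% to 5.66% in controls.

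Level per length of exon, in CPM per kb, placed the alpha chain first. In knockouts the order was Bckdha (294), Bckdhb (98.8), Dbt (56.6), Aldh6a1 (54.3), Slc25a44 (38.2), Hibadh (31.1), Ivd (30.4), Bckdk (29.5), Bcat2 (19.8) and Ppm1k (3.73). In controls it was Bckdha (248), Aldh6a1 (56.0), Bckdhb (55.8), Dbt (51.3), Slc25a44 (34.2), Ivd (30.7), Bckdk (27.0), Hibadh (26.7), Bcat2 (20.0) and Ppm1k (4.34). In knockouts the libraries of Bckdhb overlapped neither Bckdha above it nor Dbt below it, but those of Dbt and Aldh6a1, of Hibadh and Ivd, and of Ivd and Bckdk overlapped. In controls, on this length, Aldh6a1, Bckdhb and Dbt could not be ordered beyond the spread of their libraries, nor could Bckdk and Hibadh. Among the tested genes, 9 of the 10 stood at a percentile by level per length of at least 88.9 in knockouts and 89.3 in controls, and Ppm1k at 59.3 in knockouts and 61.6 in controls. The order depends on the length taken. With the longest transcript in place of all exons, Ivd, Hibadh, Bcat2, Slc25a44 and Bckdk took ranks 5, 6, 7, 8 and 9 in controls. Aldh6a1 (90.5 in knockouts and 93.3 in controls) was then above Dbt (57.4 in knockouts and 52.0 in controls) in both genotypes. The control libraries of Aldh6a1, Bckdhb (68.2) and Dbt no longer overlapped. Bckdhb kept rank 2 in knockouts and rank 3 in controls.

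**Figure D3:**
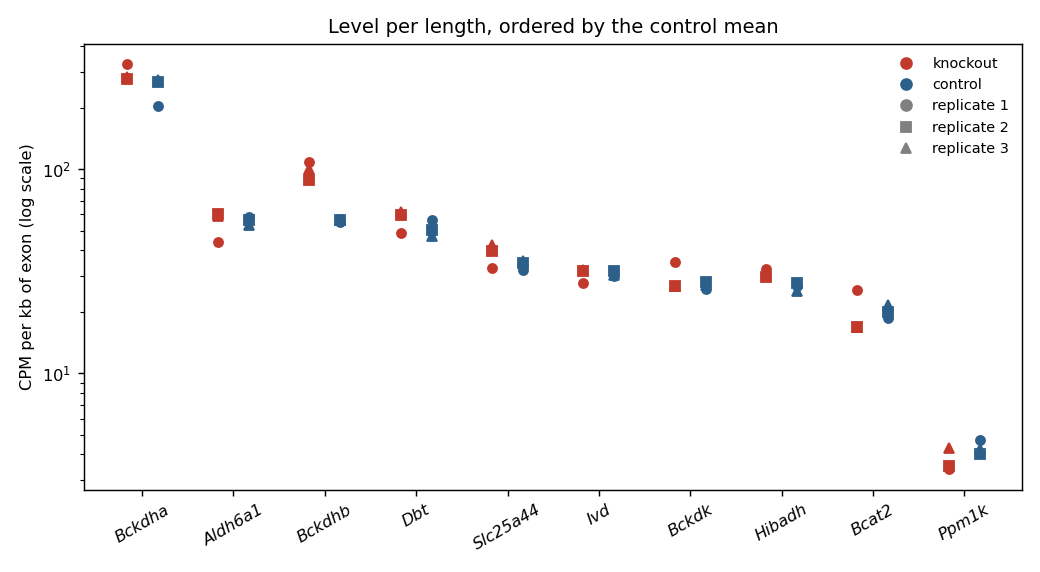
Level in CPM per kb of exon (y axis, log scale) of the 10 genes, ordered by the control mean; red marks are knockout and blue marks control libraries. Bckdha lies above every other gene and Ppm1k below every other gene in all 6 libraries, and on this length Bckdhb stands level with Aldh6a1 and Dbt in controls but above both in knockouts.

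Other steps of branched-chain amino acid breakdown lay mostly on the positive side without passing the test. Of 21 such genes, listed by their role, 0 rose and 0 fell over all genes in edgeR's test, and 18 had a positive log2 fold change, against 51.7% of all genes (median 0.18, highest 0.44, against a median of 0.01 for all genes tested). At an unadjusted p under 0.05 there were 4 higher and 0 lower. Here and for the lists that follow, 2.87% of all genes were higher and 7.6% lower. For 9 of the 21 every knockout was above every control, against 7.63% of all genes. For 0 every knockout was below every control, against 10.8%. The 4 most abundant were Hadhb and Hadha, chains of the trifunctional protein of fatty acid oxidation, with log2 fold changes of 0.29 ± 0.09 and 0.21 ± 0.13 (SE), Dld, given above, and the acetyl-CoA acetyltransferase Acat1 (0.17 ± 0.11, SE). Adjusted for the muscle markers' mean log2 CPM, Hadha was at -0.04. Bcat1, the cytosolic transaminase, was below 1 CPM in every library, at 0.326 to 0.812 CPM in knockouts and 0.134 to 0.859 CPM in controls. It was named after its values were seen.

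Amino acid transporters of the cell surface had differences of both signs. Of 9 tested, 0 rose and 0 fell over all genes, 4 were positive and 5 negative, and at an unadjusted p under 0.05 there were 0 higher and 2 lower. The 2 lower were Slc43a1, at 2.52 CPM in knockouts and 5.08 CPM in controls, and Slc7a8, at 2.23 CPM and 3.46 CPM. They were named after their values were seen. For 3 of the 9 every knockout was below every control, against 10.8% of all genes, and for 0 above, against 7.63%. Slc3a2, the heavy chain that pairs with large neutral amino acid transporters, stood at 159 ± 26.9 CPM in knockouts and 123 ± 15.9 CPM in controls (SD, n = 3 each). Its partner Slc7a5 was at 0.406 to 1.24 CPM in knockouts and 0.688 to 1.83 CPM in controls, and was named after its values were seen. Slc1a5, a glutamine carrier, had a log2 fold change of -0.02 ± 0.15, Slc43a2, a carrier of branched-chain and other neutral amino acids, 0.11 ± 0.12, and Slc38a2, another neutral amino acid carrier, 0.11 ± 0.30 (SE).

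The related keto acid dehydrogenases gave a setting for Bckdhb. Of 11 genes of the pyruvate dehydrogenase complex and its regulators, 0 rose and 0 fell over all genes, 7 were positive and the median log2 fold change was 0.12. At an unadjusted p under 0.05 there were 1 higher and 1 lower. Pdhb stood at 1313, 1155 and 1213 CPM in knockouts 1 to 3, against 959, 927 and 910.2 CPM in controls 1 to 3. All knockouts were above all controls, with a log2 fold change of 0.40 ± 0.11 (SE). Pdha1, its alpha chain partner (0.18 ± 0.15), Dlat, the transacetylase (0.21 ± 0.13), and Pdk4, an inhibitory kinase (0.08 ± 0.22, SE), had overlapping groups. Of 4 genes of the oxoglutarate dehydrogenase complex, 0 rose and 0 fell over all genes and 1 was higher at an unadjusted p under 0.05. Their log2 fold changes were 0.46 ± 0.18 for Mrps36, which links the complex together, 0.23 ± 0.11 for Dlst, the transsuccinylase, 0.10 ± 0.17 for Ogdh, the decarboxylase, and -0.20 ± 0.75 (SE) for Ogdhl, a relative of Ogdh below about 1 CPM. No other gene of these complexes reached the log2 fold change of Bckdhb, and the difference between Bckdhb and these genes was not tested.

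**Figure D4:**
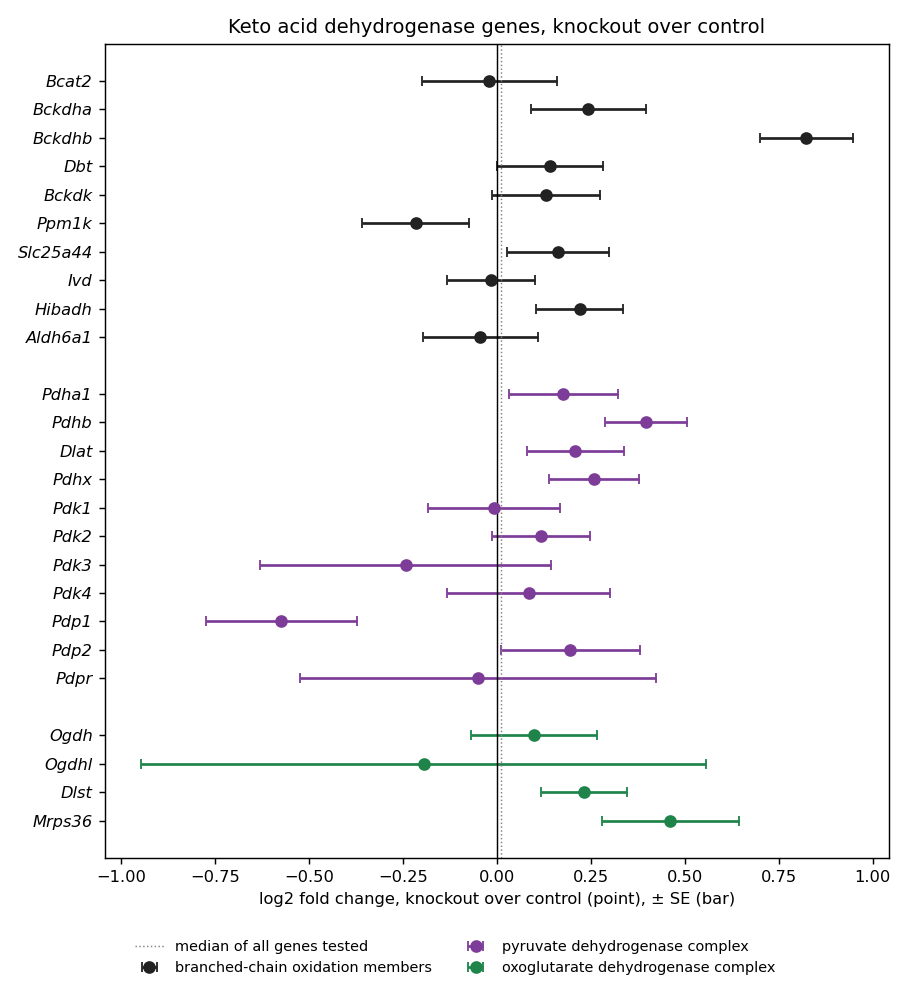
Log2 fold change of knockout over control (x axis; point) with its standard error (bar) for the 10 branched-chain oxidation genes and the genes of the pyruvate and oxoglutarate dehydrogenase complexes. Bckdhb lies at 0.82, and all other genes shown lie at or below 0.46.

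Factors that control oxidative genes overlapped between the genotypes. Of 7 listed, 0 rose and 0 fell over all genes, and 0 had an unadjusted p under 0.05 in edgeR's test. Of the 7, 6 were positive, against 51.7% of all genes, and the median log2 fold change was 0.26, against 0.01. Esrra, a nuclear receptor of mitochondrial genes, had a log2 fold change of 0.33 ± 0.18, Pparg, the master regulator of adipocytes, 0.27 ± 0.14, Ppargc1b, a coactivator, 0.26 ± 0.19, and Ppara, a nuclear receptor of fatty acid oxidation, 0.18 ± 0.44 (SE). Klf15, which in mouse muscle and liver drives genes of branched-chain amino acid breakdown, stood at 39.7, 27.5 and 31.4 CPM in knockouts 1 to 3, against 22.6, 39.1 and 41.6 CPM in controls 1 to 3. The groups overlapped, and its log2 fold change of -0.07 was the 1 negative value of the list. Klf15 was named after its values were seen.

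Genes whose levels ran most like Bckdhb over the 6 libraries were Lap3, a leucine aminopeptidase, Rmdn3, a mitochondrial protein, Uck1, a uridine kinase, Pdhb and Nudt5, a nucleotide hydrolase. Their similarity, as Pearson's r of log2 CPM with Bckdhb, lay between 0.987 and 0.996, and 219 of 9435 genes compared exceeded 0.9. The comparison left out genes named only Gm plus a number, names ending in Rik and entries without a symbol. The likeness is a description of 6 libraries that fall into 2 groups. Lap3 stood at 86.6, 81.3 and 84.4 CPM in knockouts 1 to 3, against 69.1, 70.8 and 71.3 CPM in controls 1 to 3. Rmdn3 stood at 294, 263 and 272 CPM in knockouts, against 209, 205 and 210.1 CPM in controls. Both had every knockout above every control, with log2 fold changes of 0.26 ± 0.10 and 0.41 ± 0.11 (SE), smaller than that of Bckdhb. Uck1 (0.26 ± 0.11) and Nudt5 (0.29 ± 0.10, SE) were alike in this. These genes were picked for likeness to Bckdhb, itself chosen for its genotype difference, so their separation restates that choice. Of all genes tested, 7.63% had every knockout above every control.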

How the data were processed

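Polyadenylated RNA was read paired-end after NEBNext Ultra II preparation, according to the protocols in the labels. Tissue, treatment and groups follow the sample labels, from which the design text differs in depot, replicate number and cold. Estimated counts per gene, not normalized, fill the deposited table, as its values show; the submitters' processing notes name StringTie, Salmon, edgeR and GRCm38, while versions, annotation release and strand are not given in sources used here. Gene symbols and coordinates are those of GENCODE vM21, build GRCm38 (54131 of 54385 identifiers matched).

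Estimated counts were rounded, filtered with filterByExpr (minimum count 10, minimum total 15) and tested two-sided by quasi-likelihood in edgeR 4.0.16 (R 4.3.3), genotype as the only term, TMM scaling, Benjamini-Hochberg adjustment over all genes and a threshold of 0.05. Each standard error is the fold change (log2) over the square root of F. CPM uses TMM-scaled library sizes; levels per length divide by the union of exons. A floor of 3 counts is 0.172 to 0.203 CPM. Replicates differed by more than sampling noise; nothing says how they relate beyond their labels, so p-values measure only the spread between these samples, which may be technical. The fit was tested on simulated data.

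The members, lists and tests were chosen with earlier results of these data known. Genes named were the 10 members, Adcy3, the 4 most abundant tested genes of each list, the 2 most abundant of the muscle and brown adipocyte markers (marker lists of other cells are given as sums) and the 5 genes of at least 5 CPM most correlated with Bckdhb. That correlation left out genes named only Gm plus a number, names ending in Rik and entries without a symbol. Tried as alternatives were DESeq2 1.42.0, voom of limma 3.58.1, upper-quartile and RLE factors, no filter, a filter of 1 CPM in 3 libraries, a replicate block, each library left out, scaling without mitochondrially encoded genes, 2 muscle covariates and unrounded values.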

Additional observations from a re-analysis of the deposited data

How the results depend on the processing

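Over 17 alternatives the log2 fold change of Bckdhb stayed between 0.75 (without knockout library 1) and 1.10 (adjusted for the muscle marker share). It passed the adjusted threshold with DESeq2 (0.83), limma-voom (0.82), no low-count filter (0.83) and without knockout library 1 (0.75), each time as the 1 member called, and in none of the other 13. Since Bckdhb was chosen on this contrast, these calls restate that choice. The number of genes called over all genes, 9, was 307 with DESeq2, 33 with limma-voom, 893 with no low-count filter, 17 adjusted for the muscle marker score and 4 for the muscle marker share, and from 4 to 857 with one library left out; members called then ranged from 0 to 1 and Bckdhb from 0.75 to 0.90. With the replicate number as a block 4 genes and 0 members were called, Bckdhb was at 0.82 and Ppara turned to -0.030. The numbers do not pair the samples by the labels; same-numbered libraries deviated together with correlations of 0.07, 0.11 and 0.05, and each library correlated best with its own number, a hint from the data and not the design. Adcy3 missed the threshold in 1 alternative, the muscle marker share (-3.15).

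No change of scaling turned a direction. Other directions turned, none past the threshold, with these log2 values. Adjusted for the muscle marker share these were Bcat2 (0.70), Dbt (-0.17), Slc25a44 (-0.42), Hadha (-0.35), Slc38a2 (-0.095), Slc43a2 (-0.28), Pdk4 (-0.17), Pdha1 (-0.44), Dlat (-0.14), Ogdh (-0.82), Dlst (-0.043), Ogdhl (0.68), Pparg (-0.013), Ppara (-2.39), Ppargc1b (-0.35), Myh4 (2.55) and Acta1 (3.95). Adjusted for the muscle marker score they were Bcat2 (0.32), Dbt (-0.064), Slc25a44 (-0.080), Hadha (-0.039), Pdha1 (-0.11), Ogdh (-0.28), Ogdhl (0.44), Ppara (-0.56) and Acta1 (0.35). With limma-voom they were Ogdhl (0.054) and Ppara (-0.041). With one library left out, the values of the genes that turned ranged from -0.24 to 0.082 for Bcat2, from -0.014 to 0.20 for Bckdk, from -0.053 to 0.049 for Ivd, from -0.13 to 0.090 for Aldh6a1, from -0.15 to 0.091 for Slc1a5, from -0.23 to 0.31 for Slc38a2, from -0.19 to 0.23 for Pdk4, from -0.84 to 0.27 for Ogdhl and from -0.45 to 0.56 for Ppara. The direction turned without knockout library 1 for Bckdk, Ivd and Aldh6a1, without knockout library 2 for Bcat2, Slc1a5, Slc38a2, Pdk4, Ogdhl and Ppara, without knockout library 3 for Bcat2 and without control library 3 for Slc1a5, Slc38a2, Pdk4 and Ogdhl. The cause was not tested. Bcat1 and Ogdhl lie near the floor of 3 counts in some libraries, which limits any statement about them.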
